A study of Mus musculus with 15 samples.

Results

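Fibroblast growth factors (FGFs) are secreted proteins that bind heparan sulfate and signal through 4 tyrosine kinase receptors. In the lung, FGF7 and FGF10 are made mainly by mesenchymal cells and act on the epithelium through an epithelial splice form of FGFR2. FGF1 and FGF2 bind receptors more broadly, and FGF9 and FGF18 are best known from lung development, where FGF9 comes from the mesothelium and epithelium. The set described here was the 6 ligand genes Fgf1, Fgf2, Fgf7, Fgf9, Fgf10 and Fgf18 and the 4 receptor genes Fgfr1, Fgfr2, Fgfr3 and Fgfr4. These 10 of the 33340 genes in the count table were chosen by name, and their positions are those of GENCODE M21 on GRCm38. Earlier results of these data were known when they were chosen, as for the lists of pathway and marker genes below. All 10 were among the 17457 genes with enough counts to be tested, Fgf9 through libraries after bleomycin, since 1 of its day 0 libraries reached the cutoff where 3 were needed.

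RNA-seq was carried out on polyA RNA of whole lungs from male C57BL/6 mice, 10 to 12 weeks old in every group. Bleomycin, which breaks DNA and leaves fibrosis in the lung, was given at 5 U/kg by the intratracheal route, and lungs were taken 7 days (4 libraries), 14 days (4 libraries) or 21 days (3 libraries) later. The day 0 group (4 libraries) held lungs labelled with no treatment, except that day 0 replicate 4 carried a bleomycin label beside its control title and was placed by its title. The design text gives 3 replicates at each time, whereas the sample titles used here give 4, 4, 4 and 3, and no label says whether each library came from a separate mouse, so p-values measure the spread between these libraries, which may in part be technical, and injected vehicle controls at days 7, 14 and 21 were not analysed here.

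Libraries held 15652008 to 18020661 counts, and levels are given as counts per 1000000 counts (CPM) scaled by the trimmed mean of M-values (TMM). The lung label fitted the markers: the 7 alveolar type 2 markers, such as the surfactant genes, summed to 28141 to 38294 CPM in the day 0 libraries. Libraries differed in the share of counts from 16 mitochondrial genes, which was 2.03 to 2.31% in day 0 replicates 1 and 2, all of day 7 and day 14 replicate 1, was 3.74 to 4.22% in day 0 replicates 3 and 4, day 14 replicates 2 to 4 and day 21 replicate 1, and was 2.66 and 3.18% in the other 2 day 21 libraries. Day 14 replicate 1 also stood apart in 6 activated fibroblast markers such as Col1a1, which summed to 15638 CPM there while the rest of that day held 4270 to 5249 CPM.

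Calls rest on edgeR's quasi-likelihood test, and a gene counted as called when its p, adjusted over all genes tested by Benjamini and Hochberg's method, was under 0.05 and its fold change over 1.5. Against day 0, 3 of the 10 genes were called at day 7, 1 higher and 2 lower, where 16.1% of all genes tested were called (8.78% higher and 7.36% lower). At day 14 it was 7 of 10, 1 higher and 6 lower, against 23.1% of all genes (12% higher and 11.2% lower). At day 21 it was 8 of 10, 2 higher and 6 lower, against 22.5% (12.4% higher and 10.1% lower). Fgf2 was called higher on each day and Fgfr1 at day 21, whereas Fgfr2 and Fgfr3 were called lower on each day and Fgf1, Fgf7, Fgf10 and Fgfr4 at days 14 and 21. Fgf9 and Fgf18 were called on no day. All 3 comparisons used the same day 0 libraries, so they are not independent of each other. The median log2 fold change of the 10 genes was -0.53, -0.92 and -0.74 at days 7, 14 and 21, beside 0.01, 0.02 and 0.02 over all genes tested.

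Sequences just before a RefSeq start are shown for Fgfr2, called lower on each day, and for its ligand pair Fgf7 and Fgf10. RefSeq starts on GRCm38.p6 were at hand for 8 of the 10 genes, and Fgf1 and Fgfr1 are named only. The counts do not show which start was used. The windows of Fgf2 and Fgfr4 overlapped exons of GENCODE M21 (by 250 and 178 bases) and are not shown. The start of Fgf7 and that of Fgf10 are those of an annotated coding transcript, although 2 other Fgf10 transcripts begin further upstream. No annotated Fgfr2 transcript begins at its RefSeq start: of 27, 26 begin downstream, the nearest by 545 bases, so the Fgfr2 run may not lie next to the start used in lung. Each run below is the 250 bases before the start, 5′ to 3′ on the strand of the gene. Capitals mark matches, read on both strands, to a GC box with the letters GGGCGG, a box with the letters CCAAT, and a SMAD box with the letters CAGAC, the last being the core that TGF-beta-activated SMAD proteins bind.
Fgf7, chr2:126034408-126034657, plus strand: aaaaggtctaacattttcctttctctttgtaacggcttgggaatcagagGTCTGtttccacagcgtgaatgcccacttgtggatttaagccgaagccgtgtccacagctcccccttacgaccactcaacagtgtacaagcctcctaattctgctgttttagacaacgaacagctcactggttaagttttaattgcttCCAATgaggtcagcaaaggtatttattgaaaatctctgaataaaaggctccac
Fgf10, chr13:118714449-118714698, plus strand: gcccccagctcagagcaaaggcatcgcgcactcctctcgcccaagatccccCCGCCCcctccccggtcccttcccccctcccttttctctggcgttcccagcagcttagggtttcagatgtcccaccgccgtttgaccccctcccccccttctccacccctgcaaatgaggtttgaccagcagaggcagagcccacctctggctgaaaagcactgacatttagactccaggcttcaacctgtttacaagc
Fgfr2, chr7:130266809-130267058, minus strand: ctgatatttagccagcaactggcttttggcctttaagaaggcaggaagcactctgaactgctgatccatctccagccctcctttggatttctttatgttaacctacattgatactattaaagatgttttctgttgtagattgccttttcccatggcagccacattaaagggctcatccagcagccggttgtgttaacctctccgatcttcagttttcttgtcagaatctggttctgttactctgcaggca
The window of Fgf7 held 1 CCAAT box at position -53 from the start and 1 SMAD box at -201. Fgf10 had 1 GC box at -199, and the Fgfr2 window had no match, at 44% G and C and 2 CG dinucleotides. For comparison, 32.7% of all 32851 promoter windows of this length held a GC box, 33.8% a CCAAT box and 42.2% a SMAD box, so these matches are common. A TATA box, spelled TATAAA and present in 12.4% of windows, was also searched on both strands, as was an AP-1 site, spelled TGACTCA and present in 4.46%, and no window of the 8 genes held either. The other starts of Fgfr2 were not examined.

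Fgf2 (chr3:37348346-37410108, plus strand), a broadly acting ligand known as a mitogen of fibroblasts and endothelial cells, was the member of the 6 ligands that rose. Its level was 36.1, 35.0, 35.5 and 40.9 CPM in the 4 day 0 libraries. At day 7 it was 55.1, 96.3, 56.7 and 59.8 CPM, at day 14 it was 99.0, 51.7, 57.0 and 62.2 CPM, and at day 21 it was 71.7, 112 and 91.8 CPM. Every library after bleomycin was above every day 0 library, and 1 library at day 7 (replicate 2) and 1 at day 14 (replicate 1) lay well above the rest of their groups. The log2 fold change against day 0 was 0.86 (SE 0.21, adjusted p = 0.00984) at day 7, 0.87 (SE 0.21, adjusted p = 0.00596) at day 14 and 1.32 (SE 0.23, adjusted p = 0.000594) at day 21. A fit with the mitochondrial share as a term lost the day 7 call (0.60, adjusted p = 0.142) which was kept among the libraries under 2.5% (0.90, adjusted p = 0.0280). At day 14, among the libraries over 3.5%, the fold was below 1.5 (0.56, adjusted p = 0.0329), while among those under 2.5%, with 1 day 14 library, the value was 1.46 (adjusted p = 0.00854). At day 21 the single library over 3.5% gave 0.87 (adjusted p = 0.0201). Nudt6 lies on the opposite strand and shares 640 bases, or 9.44%, of the Fgf2 exons, and the library kit does not mark strand.

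Fgf1, which can bind all 4 receptors, was lower after bleomycin. It was at 332, 315, 265 and 289 CPM in the day 0 libraries and at 186, 168, 237 and 213 CPM at day 7. At day 14 it was at 97.7, 112, 170 and 187 CPM and at day 21 at 73.2, 197 and 134 CPM. No later library reached the lowest day 0 library. The log2 fold change was -0.58 (SE 0.25, adjusted p = 0.101) at day 7, which did not pass, although it did with the 2 groups alone (-0.61, adjusted p = 0.00411) and among the libraries under 2.5% mitochondrial share (-0.70, adjusted p = 0.00967). It passed at day 14 at -1.08 (SE 0.25, adjusted p = 0.00425) and at day 21 at -1.16 (SE 0.28, adjusted p = 0.00580). Within the mitochondrial groups the size of the change moved while the call stayed. At day 14 it was -1.74 (adjusted p = 0.000810) among the libraries under 2.5%, with 1 day 14 library, and -0.84 (adjusted p = 0.0295) among those over 3.5%, where day 21, with 1 library, was at -1.96 (adjusted p = 0.00670).

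Fgf7 (chr2:126034658-126091185, plus strand), also called keratinocyte growth factor, and Fgf10 (chr13:118669791-118792115, plus strand), which drives branching of the lung epithelium in development, both act on the epithelium through FGFR2. Fgf7 stood at 39.4, 42.1, 30.5 and 31.6 CPM on day 0, at 26.2, 22.05, 24.6 and 25.3 CPM on day 7, at 25.05, 14.2, 14.99 and 13.8 CPM on day 14 and at 27.3, 18.1 and 22.5 CPM on day 21. All later libraries were below all day 0 libraries, and day 14 replicate 1 was apart from the other day 14 libraries. The log2 fold change of Fgf7 was -0.55 (SE 0.19, adjusted p = 0.0414) at day 7, with the fold below 1.5, -1.08 (SE 0.19, adjusted p = 0.000525) at day 14 and -0.67 (SE 0.20, adjusted p = 0.0219) at day 21. The day 21 call was lost without day 21 replicate 2 (-0.57, adjusted p = 0.0822) and among the libraries over 3.5% mitochondrial share (-0.22, adjusted p = 0.512), where day 21 had 1 library. Fgf10 stood at 26.4, 30.1, 20.8 and 22.8 CPM on day 0, at 17.6, 17.6, 15.6 and 19.6 CPM on day 7, at 20.03, 8.99, 13.4 and 14.3 CPM on day 14 and at 13.7, 11.9 and 17.1 CPM on day 21. No later library overlapped day 0 for Fgf10 either. Its log2 fold change was -0.51 (SE 0.20, adjusted p = 0.0718) at day 7, -0.82 (SE 0.20, adjusted p = 0.00557) at day 14 and -0.82 (SE 0.22, adjusted p = 0.0108) at day 21. In the fit with that share as a term, Fgf7 (-0.82, adjusted p = 0.0102) and Fgf10 (-0.82, adjusted p = 0.0113) were both called lower at day 7, as they were among the libraries under 2.5% (-0.75, adjusted p = 0.00300 and -0.70, adjusted p = 0.00772). The later calls of Fgf10 were lost within such groups, at day 14 among the libraries under 2.5% (-0.51, adjusted p = 0.0746) and at day 21 among those over 3.5% (-0.71, adjusted p = 0.169), each with 1 library on the later day. The ratio of Fgf7 to Fgf10 counts per kilobase of exon ranged from 1.97 to 2.11 on day 0 and from 1.36 to 2.83 over all 15 libraries, so the day 0 range lay within that of the later days.

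Fgf9 and Fgf18 had the lowest mean CPM of the ligands on each day, though per kilobase Fgf18 was level with Fgf2 and Fgf10 on day 0. Fgf18 (chr11:33117430-33147400, minus strand) had a mean of 7.11 ± 1.90 CPM (SD, n = 4) on day 0, 7.15 ± 2.26 (n = 4) on day 7, 7.98 ± 2.78 (n = 4) on day 14 and 6.76 ± 2.89 (n = 3) on day 21. The groups overlapped, and the log2 fold changes were 0.01, 0.17 and -0.07 with SE of 0.32, 0.32 and 0.35 (adjusted p = 0.988, 0.722 and 0.902), so the normal 95% interval at day 21 ran from -0.75 to 0.62. Fgf9 (chr14:58070547-58112720, plus strand) had 2 to 36 counts a library, at 0.25 to 1.29 CPM on day 0, 0.42 to 1.12 on day 7, 0.42 to 2.06 on day 14 and 0.12 to 1.47 on day 21. Its log2 fold changes of 0.33, 0.77 and 0.41 had SE of 0.65, 0.64 and 0.70, and a change of this size was not detectable at this depth. Fgf9 passed the filter on low counts through the later libraries, so it is given no p.

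**Figure D1:**
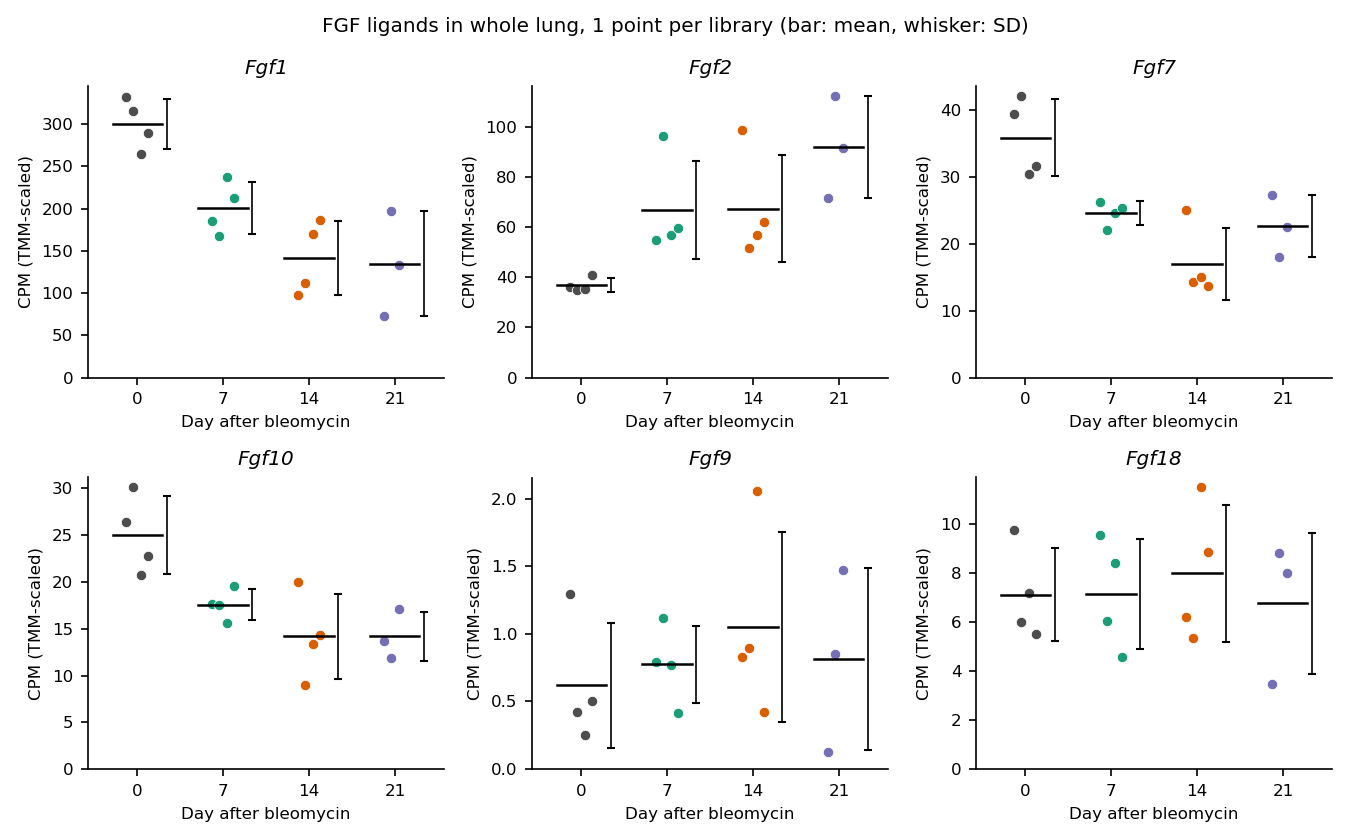
CPM (TMM-scaled, linear axis from 0) of the 6 ligand genes against day after bleomycin, with 1 point per library, a bar at the group mean and a whisker of 1 SD. The Fgf2 points after bleomycin lie above all day 0 points, those of Fgf1, Fgf7 and Fgf10 lie below, and those of Fgf9 and Fgf18 overlap day 0.

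Of the receptors, Fgfr2 was called lower on each day, as was Fgfr3. The product of Fgfr2 is the receptor for FGF7 and FGF10 in epithelium, and the gene counts used here do not separate the epithelial and mesenchymal splice forms. The gene is annotated at chr7:130162451-133123350 on the minus strand, a span set by very long annotated transcripts. Fgfr2 was at 237, 223, 271 and 245 CPM in the day 0 libraries, at 152, 111, 181 and 132 CPM at day 7, at 65.4, 76.5, 94.1 and 102 CPM at day 14 and at 47.7, 77.7 and 60 CPM at day 21. Days 0, 7 and 14 did not overlap with each other, whereas days 14 and 21 did. The log2 fold change against day 0 was -0.76 (SE 0.17, adjusted p = 0.00602) at day 7, -1.53 (SE 0.18, adjusted p = 1.73e-05) at day 14 and -1.98 (SE 0.20, adjusted p = 8.58e-06) at day 21, the last being a fold of 0.253. In the fit with the mitochondrial share as a term the day 7 call was lost (-0.62, adjusted p = 0.0687), while it was kept within the libraries under 2.5% (-0.69, adjusted p = 0.0221). Within the libraries over 3.5%, the values were -1.52 (adjusted p = 0.000731) at day 14 and -2.47 (adjusted p = 0.00102) at day 21, the latter from 1 library that is assumed to vary like the other groups.

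The days after bleomycin were also compared with each other. With edgeR, Fgfr2 was the single member of 10 called between days 7 and 14, where 6% of all genes were called (2.77% higher and 3.23% lower), with a log2 fold change of -0.77 (SE 0.18, adjusted p = 0.0200). With edgeR it was also the single member called between days 7 and 21, where 9.54% of all genes were called (5.2% higher and 4.34% lower), at -1.22 (SE 0.19, adjusted p = 0.00252). Fgfr4, whose libraries did not overlap between those days either, was called there by DESeq2 (-1.13, adjusted p = 0.0253), with no filter (-1.16, adjusted p = 0.0255) and without day 7 replicate 2 (-1.34, adjusted p = 0.0407), as was Fgf2 without that library (0.69, adjusted p = 0.0488). The Fgfr2 call between days 7 and 14 was lost without day 7 replicate 1 (-0.74, adjusted p = 0.0506), day 7 replicate 3 (-0.64, adjusted p = 0.0613) or day 14 replicate 2 (-0.72, adjusted p = 0.0643) and with the mitochondrial share as a term (-0.95, adjusted p = 0.0596). Between days 14 and 21 no member and, with edgeR on all 15 libraries, no gene at all was called (0%), with 1714 genes at an unadjusted p under 0.05, and Fgfr2 was at -0.45 (SE 0.19, adjusted p = 0.471). The number of all genes called between days 14 and 21 was 106 with DESeq2 and 37 with no filter. It was 127 of 17409 without day 14 replicate 1 and 753 of 18294 among the libraries over 3.5%.

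Fgfr3 and Fgfr4 were also lower. Fgfr3 (chr5:33721674-33737068, plus strand), whose product in other tissues restrains bone growth, was at 218, 197, 232 and 239 CPM on day 0 and at 105, 121, 128 and 178 CPM on day 7. It was at 72.7, 128, 129 and 108 CPM on day 14 and at 124, 159 and 88.6 CPM on day 21, so all later libraries were below all day 0 libraries. The log2 fold changes were -0.74 (SE 0.20, adjusted p = 0.0166), -1.02 (SE 0.21, adjusted p = 0.00158) and -0.83 (SE 0.22, adjusted p = 0.0109) at days 7, 14 and 21. The day 7 call was lost without day 7 replicate 1 (adjusted p = 0.0538) or replicate 2 (adjusted p = 0.05001, just over the threshold) and in the fit with the mitochondrial share as a term (-0.45, adjusted p = 0.192). The unnamed locus G630022F23Rik lies on the opposite strand over 13.9% of the Fgfr3 exons, and its reads cannot be told apart there. Fgfr4 (chr13:55152640-55168759, plus strand), best known as a liver receptor in the control of bile acid synthesis, was at 36.7, 23.9, 33.6 and 40.3 CPM on day 0, at 18.4, 11.7, 34.5 and 22.6 CPM on day 7, at 7.33, 6.95, 22.3 and 15.2 CPM on day 14 and at 7.48, 11.6 and 10.7 CPM on day 21. Day 7 overlapped day 0, and days 14 and 21 did not. Fgfr4 was at -0.63 (SE 0.35, adjusted p = 0.205) at day 7, and fell at day 14 (-1.38, SE 0.36, adjusted p = 0.00860) and at day 21 (-1.76, SE 0.41, adjusted p = 0.00431). Among the libraries under 2.5%, with 1 day 14 library, the day 14 values were further from 0 for both Fgfr3 (-1.52, adjusted p = 0.00569) and Fgfr4 (-2.06, adjusted p = 0.0305).

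Fgfr1 (chr8:25513654-25575718, plus strand), the receptor used widely in mesenchymal cells, was at 107, 103, 91.5 and 100.1 CPM on day 0. It was at 116, 126, 126 and 118 CPM on day 7, at 224, 113, 93.0 and 93.6 CPM on day 14 and at 245, 163 and 138 CPM on day 21. Day 7 and day 21 lay wholly above day 0, while at day 14 replicate 1 was far above the other libraries, which overlapped day 0. The log2 fold change was 0.28 (SE 0.24, adjusted p = 0.417) at day 7, 0.38 (SE 0.24, adjusted p = 0.237) at day 14 and 0.86 (SE 0.25, adjusted p = 0.0188) at day 21, the day on which it passed. Without day 14 replicate 1 the day 14 value was -0.03, and among the libraries under 2.5%, where that replicate is the single day 14 library, it was called (1.08, adjusted p = 0.000554). The day 21 call was lost without day 0 replicate 3 (0.79, adjusted p = 0.0525) or day 21 replicate 1 (0.55, adjusted p = 0.156). The libraries with the highest Fgfr1, day 21 replicate 1 and day 14 replicate 1, were also those with the highest summed activated fibroblast markers, at 10742 and 15638 CPM. Day 21 replicate 3, however, held 10036 CPM of these markers with the lowest Fgfr1 of its day, 138 CPM. Day 21 replicate 2 held 5551 CPM of them with Fgfr1 at 163 CPM. The part of these cells in the result was not tested.

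**Figure D2:**
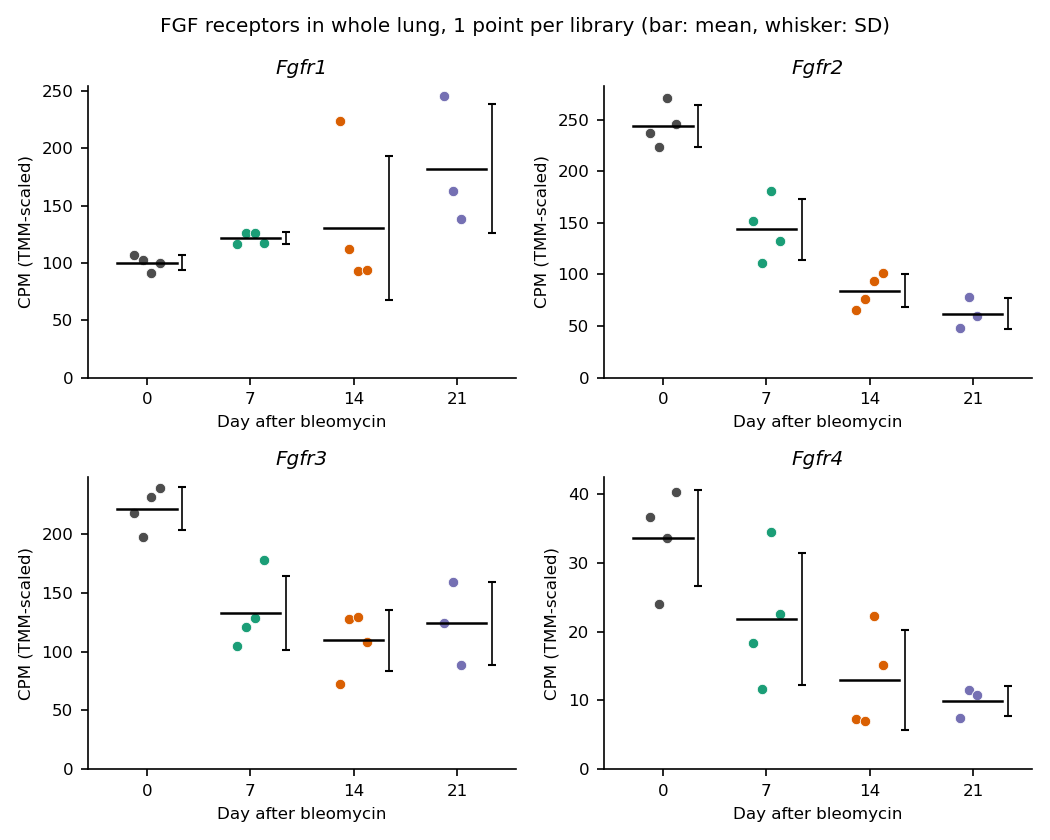
CPM (TMM-scaled, linear axis from 0) of the 4 receptor genes against day after bleomycin, with 1 point per library, a bar at the group mean and a whisker of 1 SD. Fgfr2 went from a mean of 244 CPM on day 0 to 61.8 CPM on day 21, and the Fgfr1 mean of day 14 is pulled up by 1 library at 224 CPM.

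**Figure D3:**
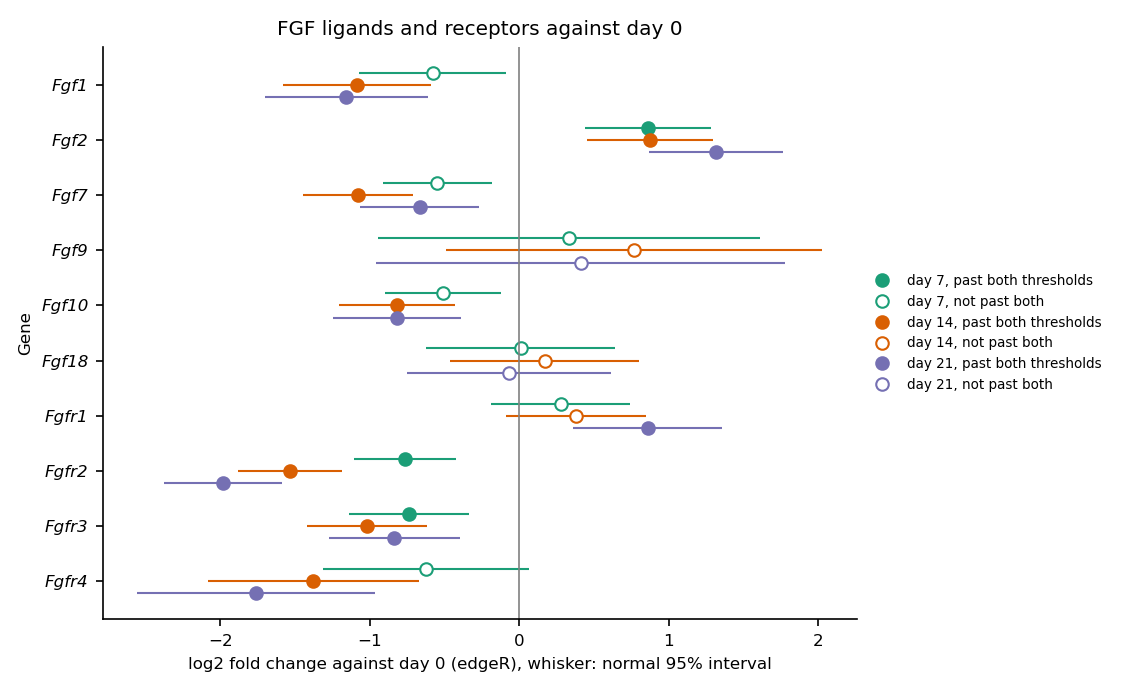
Log2 fold change against day 0 (horizontal axis) of the 10 genes at days 7, 14 and 21, with normal 95% intervals and filled points for values past both thresholds. Fgf2 lies right of 0 on each day and Fgfr1 at day 21, the 6 genes called lower at days 14 and 21 lie left of 0, and Fgf9 has the widest intervals.

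Counting libraries picked the same genes as the calls at days 14 and 21, but more genes at day 7 than the 3 called there. At day 7, 7 of the 10 genes had no overlap with day 0 (2 above, Fgf2 and Fgfr1, and 5 below), beside 30.8% of all genes tested. At day 14 it was 7 of 10 (1 above, 6 below), beside 31.1%, and at day 21 it was 8 of 10 (2 above, 6 below), beside 35.5%. By direction, 13.2%, 14.4% and 16% of all genes had every library of days 7, 14 and 21 below every day 0 library, and 17.6%, 16.8% and 19.4% had every library above.

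To compare levels between genes, CPM were divided by the exon length of each gene in kilobases. On this scale the order on day 0 began with Fgf1 at 55.0 ± 5.41 (SD, n = 4), Fgfr3 at 30.9 ± 2.56 and Fgfr2 at 23.6 ± 1.97, each apart from the next. Fgf7 (11.1), Fgfr1 (10.2) and Fgfr4 (9.50) followed with overlapping ranges, then Fgf18 (5.99), Fgf2 (5.44) and Fgf10 (5.44), whose ranges also overlapped, and Fgf9 at 0.133 was apart. By day 21 Fgf1 (24.7 ± 11.4, n = 3), Fgfr1 (18.4 ± 5.68) and Fgfr3 (17.3 ± 4.93) led with overlapping ranges, and Fgf2 (13.6 ± 3.004) was in the fourth place, apart from Fgf7 (6.97) below it. Fgfr2 was then at 5.99 ± 1.46, in the sixth place. The order depends on the length used. Divided by the longest transcript instead, Fgfr2 (55.1) and Fgfr3 (52.1) changed places on day 0 with overlapping ranges, and Fgfr1 (19.9) stood above Fgf7 (13.4) with ranges apart. On day 21 Fgfr1 (36.1) then stood above Fgf1 (33.8) with overlapping ranges, and Fgfr2 (13.96) was in the fifth place, apart from Fgf7 (8.47) below it.

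The make-up of the length-scaled receptor RNA shifted. Fgfr1 made up 13.8 ± 1.66% of the summed CPM per kilobase of the 4 receptors on day 0, 24.5 ± 3.63% on day 7, 32.7 ± 15.1% on day 14 and 41.3 ± 8.84% on day 21. Fgfr2 made up 31.9 ± 1.71%, 27.4 ± 4.28%, 20.3 ± 4.18% and 13.7 ± 3.75% on the same days. Fgfr3 stayed at group means of 36.4 to 41.7%, and Fgfr4 went from 12.7 ± 1.92% on day 0 to 6.496 ± 2.13% on day 21. With the longest transcript as the length, the shares on days 0 and 21 were 14.6% and 43.7% for Fgfr1, 40.1% and 17.3% for Fgfr2, 37.96% and 35.2% for Fgfr3 and 7.33% and 3.75% for Fgfr4, so the directions held and the Fgfr4 share was lower. The ratio of Fgfr1 to Fgfr2 per kilobase was 0.353 to 0.482 in the day 0 libraries, 0.730 to 1.19 at day 7, 0.964 to 3.58 at day 14 and 2.19 to 5.38 at day 21. Each later library was thus above each day 0 library, and days 7 and 21 did not overlap, while day 14 overlapped both. Among the ligands, the ratio of Fgf1 to Fgf2 was 8.78 to 11.4 on day 0, 2.16 to 5.19 at day 7, 1.23 to 3.73 at day 14 and 1.27 to 2.18 at day 21. No test was run on these ratios, which restate the changes of the genes they hold, and the summed CPM per kilobase of all 4 receptors was 66.35 to 78.6 on day 0 and 35.2 to 49.5 on day 21.

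**Figure D4:**
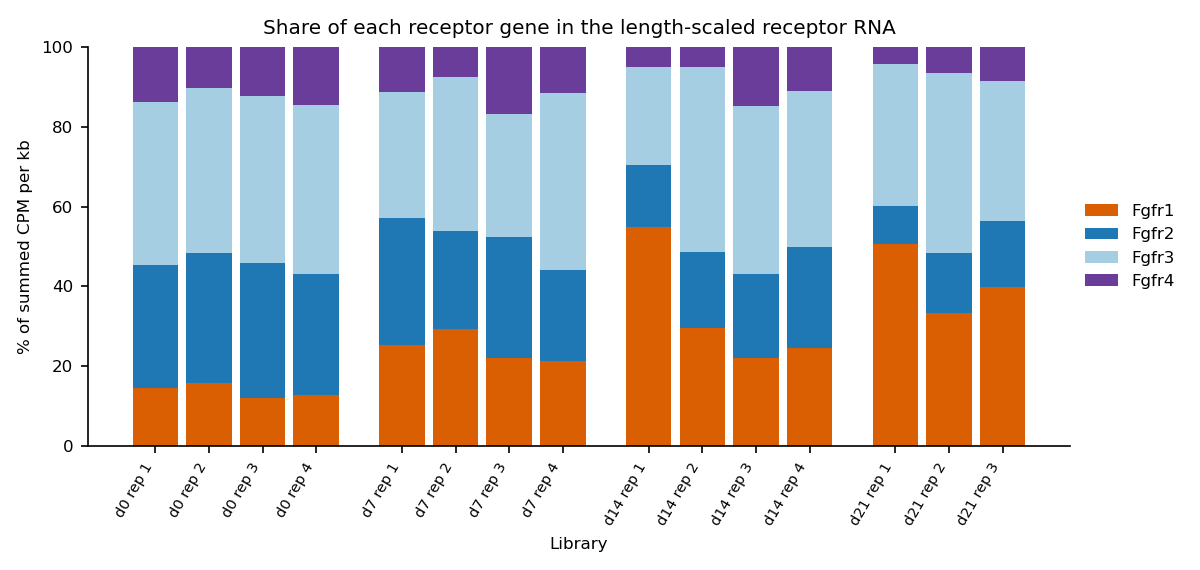
Share (percent, stacked to 100) of each receptor gene in the summed CPM per kilobase of exon of the 4 receptors, 1 bar per library. The Fgfr1 share is 12.0 to 15.7% in the day 0 libraries and 33.3 to 50.8% in the day 21 libraries, and is 54.9% in day 14 replicate 1.

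Cell type markers moved over the same days. The 7 alveolar type 2 markers, cells that carry FGFR2, summed to 18472 to 26976 CPM at day 7, 7275 to 21330 at day 14 and 4621 to 10037 at day 21, with 0, 4 and 7 of 7 called lower. Of 6 alveolar fibroblast markers, 1, 4 and 4 were called lower, and they summed to 3691 to 4388 CPM on day 0, 2197 to 2820 at day 7, 1337 to 2014 at day 14 and 1448 to 2550 at day 21. Of 6 endothelial markers, 1, 4 and 2 were called lower, and they summed to 2663 to 3131 CPM on day 0, 1909 to 2473 at day 7, 1395 to 2336 at day 14 and 1698 to 2185 at day 21. Of 5 airway club and ciliated cell markers, 2, 5 and 3 were called lower, and they summed to 25652 to 32450 CPM on day 0 and 1527 to 5657 at day 21. Of 4 tested adipocyte markers, 1, 4 and 3 were called lower, and all 5 listed summed to 19.2 to 51.6 CPM on day 0, 7.65 to 91.5 at day 7, 1.004 to 3.64 at day 14 and 0.741 to 2.54 at day 21. Activated fibroblast markers rose, 4 of 6 at day 7 and 6 of 6 at days 14 and 21, from 816 to 1143 CPM on day 0 to 5551 to 10742 CPM at day 21, as did 4, 3 and 2 of 4 markers of transitional alveolar epithelium. The 2 tested airway basal markers had a median log2 fold change of 1.33, 1.05 and 2.26 at days 7, 14 and 21. The 3 listed were low, summing to 0.635 to 3.39 CPM on day 0. Calls of this and the other lists follow. Of 6 leukocyte markers, 1, 2 and 2 were called higher and 1, 1 and 2 lower, and of 6 alveolar type 1 markers, 1, 1 and 1 higher and 1, 0 and 2 lower. Of 4 smooth muscle markers 0, 1 and 2 were called higher, and of 4 mesothelial markers 0, 1 and 1 higher. Of 2 tested airway basal markers 1, 0 and 1 were called higher, and of 4 tested cardiac muscle markers 1 was called lower at day 14. All 5 listed cardiac muscle markers summed to 18.2, 37.4, 224 and 163 CPM in the day 0 libraries. At day 7 they summed to 35.9, 24.1, 49.6 and 558 CPM, and at day 14 to 18.7 to 36.1 CPM. Day 21 replicate 1 held 665 CPM, and the other day 21 libraries 11.8 and 20.2 CPM. That replicate is the single day 21 library in the group of high mitochondrial share, and without it the Fgfr1 day 21 call was lost. The part of this difference in the FGF values was not tested. Lep, an adipocyte marker, was at 0 counts throughout day 21, and 1 airway basal marker throughout day 0. In whole lung, fewer cells of a type and less RNA per cell cannot be told apart, and the part of cell make-up in the changes of the FGF genes was not tested.

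The genes whose log2 CPM followed each changed member most closely over the 15 libraries were picked among 12240 tested genes with a mean of at least 5 CPM. Libraries of a day share their treatment, so these values of Pearson's r describe the pattern and carry no test. Fgfr2 was followed by Rmdn2 (r = 0.98), Krt79 (r = 0.98) and Inmt (r = 0.98), the last a marker used here for alveolar fibroblasts. Fgf1 was followed by Pde8b and Pde7b, cyclic nucleotide phosphodiesterases, and Cavin2, a caveolar coat gene (all r = 0.98). Fgf2 went with Shc1 (r = 0.97), an adaptor of receptor tyrosine kinases, with Gm18588 (r = 0.95) and with Zfp516 (r = 0.95). Fgf7 went with Alox12 (r = 0.94), Il6ra (r = 0.91) and Itih5 (r = 0.91), and Fgf10 with Card6 (r = 0.94), Pid1 (r = 0.94) and Fam129a (r = 0.91). Fgfr1 went with Porcn (r = 0.93), which acylates Wnt proteins, Prkacb (r = 0.93) and Ms4a4a (r = 0.92). Fgfr3 went with Ppp1r13b (r = 0.97), Sorbs3 (r = 0.96) and Lims2 (r = 0.95), and Fgfr4 with Slc7a10 (r = 0.96) and Kdr (r = 0.96), the last encoding the VEGF receptor of endothelium.

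Around the 10 genes, 86 genes of the FGF pathway in 7 lists were examined, of which 73 could be tested. At day 7, 10 of them were called higher and 3 lower (17.8% called, against 16.1% of all genes), at day 14 it was 18 and 4 (30.1%, against 23.1%) and at day 21 it was 18 and 3 (28.8%, against 22.5%). Their median log2 fold change was 0.19, 0.15 and 0.26 on the 3 days. These counts hold 5 genes, Fgf16, Fgf23, Fgf13, Etv4 and Sox9, that passed the filter on low counts through the later libraries alone. Of the other 68, 7 were called higher and 3 lower at day 7 (14.7%), 16 and 4 at day 14 (29.4%) and 15 and 3 at day 21 (26.5%), with medians of 0.16, 0.07 and 0.25.

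Of the 12 other secreted ligands listed, 10 were in the table and 2, Fgf16 and Fgf23, had enough counts to be tested. Fgf23, a bone hormone that lowers phosphate, was near absent on day 0. It had 2 counts over the 4 day 0 libraries, 13 to 24 counts a library at day 7, 11 to 42 at day 14 and 16 to 59 at day 21. The ratio of summed counts to day 0, scaled for library size, was 33.5 at day 7, 49.7 at day 14 and 64.7 at day 21. These ratios rest on the 2 day 0 counts, so their size is uncertain, and they carry no test. The gene passed the filter on low counts through the later libraries alone, as did Fgf13, Etv4 and Sox9 below, so the calls of these 4 genes, which are in the totals above and in the counts of their lists, are given no p. Of the 4 intracellular FGF homologous factors, which are not secreted, Fgf13 had a mean of 0.799 CPM on day 0 and means of 2.31, 1.63 and 1.06 CPM on the later days, and it was called higher at day 7, a call lost with the mitochondrial share as a term and with glmTreat, which tests against the fold threshold itself. None was called at days 14 and 21 with edgeR on all 15 libraries, where an unadjusted p under 0.05 was reached by 1 gene at day 14 and 0 at day 21. At day 14, 1 was called by DESeq2, with the mitochondrial share as a term, without day 0 replicate 3 and without day 14 replicate 2.

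Of 8 tested co-receptors and binding proteins, Fgfbp1, a carrier that releases FGFs from the matrix, was lower on each day, at -0.73 (adjusted p = 0.0498), -1.80 (adjusted p = 0.000150) and -1.68 (adjusted p = 0.000657). The day 7 call of this gene lay at the threshold, and 7 of the 8 fits that left out a day 0 or day 7 library called no gene of the list there. Ncam1, an adhesion molecule that can bind FGFR1, was called higher at day 14 (1.598, adjusted p = 0.0109) and day 21 (1.74, adjusted p = 0.0100), but not without day 14 replicate 1 at day 14. Of the 8 tested in this list, 12.5%, 25% and 25% were called at days 7, 14 and 21, beside 16.1%, 23.1% and 22.5% of all genes. Among 18 adaptors and effectors that carry the signal from the receptor to Ras and ERK, 1 gene was called on each day, or 5.56%. Plcg1, the phospholipase recruited by activated receptors, was lower at day 7 (-0.68, adjusted p = 0.00226), and Nras was higher at day 14 (0.60, adjusted p = 0.000208) and day 21 (0.66, adjusted p = 0.000216), with a fold near the 1.5 threshold. The Plcg1 call did not stand among the libraries under 2.5%, with glmTreat or in the fit that held the mitochondrial share, each of which called 0 genes of the list at day 7. At day 14, 0 were called with no filter, with a mean of at least 1 CPM, with the 2 groups alone, among the libraries over 3.5%, with glmTreat and in 4 of the 8 fits without a day 0 or day 14 library. At day 21 glmTreat called 0. The median of this list was within 0.06 of 0 on each day.

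Feedback inhibitors of the pathway, which receptor signalling switches on, numbered 11 tested. With edgeR on all 15 libraries none was called at day 7, where 4 had an unadjusted p under 0.05. Other settings called 1 to 3 there, namely 3 with no fold threshold, 2 with DESeq2 and among the libraries under 2.5%, and 1 with no filter, with a mean of at least 1 CPM, with the replicate block and without day 0 replicate 1, 3 or 4 or day 7 replicate 3 or 4. At day 14, Spry4 (0.92, adjusted p = 0.00774), Dusp6 (0.62, adjusted p = 0.000906) and Spred3 were called higher and Spred2 lower (-0.63, adjusted p = 0.00189). At day 21, Spred3 (1.09, adjusted p = 0.00214), Spry4 (0.81, adjusted p = 0.0232), Dusp6 and Spred1 were called higher, and Spry2 lower (-0.74, adjusted p = 0.00467). Among the libraries over 3.5%, where day 21 had 1 library, 0 genes of the list were called higher and 2 lower, glmTreat called none at day 14 or day 21, and the 4 higher calls became 2 without day 0 replicate 1, 2 or 3 or day 21 replicate 2 or 3. The list thus held genes called in both directions, with a median of 0.08 at day 14 and 0.24 at day 21. Of its genes, 0%, 36.4% and 45.5% were called at days 7, 14 and 21, beside 16.1%, 23.1% and 22.5% of all genes. Of 7 target transcription factors, Etv4 was low on day 0, at 3 to 7 counts a library and a mean of 0.305 CPM, and its mean was 3.29 CPM at day 7, 8.27 at day 14 and 12.6 at day 21. Every later library was above every day 0 library. Its close relative Etv5 was at a mean of 231 CPM on day 0 and 68.3 CPM on day 21, and was called lower at day 14 (-1.29, adjusted p = 0.00144) and day 21 (-1.76, adjusted p = 0.000386). Myc rose on each day (1.38, 1.58 and 2.1005, with adjusted p = 0.00659, 0.00167 and 0.000344), whereas Sox9 had a mean of 0.601 CPM on day 0 and 2.52 at day 21 with overlapping libraries. Etv1, Fos and Egr1 were not called with edgeR on all 15 libraries, although the value of Etv1 at day 14 (-0.58, adjusted p = 0.0259) was just short of the fold threshold. Called were 28.6%, 42.9% and 57.1% of the 7 factors at days 7, 14 and 21, which counts Etv4 and Sox9. The calls of this list moved with the setting. At day 7, where 2 were called higher, the fits with the mitochondrial share as a term and with glmTreat called 1 higher, and 1 gene was called lower with that term, with no filter, among the libraries under 2.5% and without day 0 replicate 1 or 2. At day 14 the count went from 2 higher and 1 lower to 2 higher and 3 lower with no filter, to 3 higher and 2 lower without day 0 replicate 4 and to 4 higher and 1 lower among the libraries under 2.5%, and 2 were called lower with DESeq2, limma voom and the replicate block, among other settings.

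**Figure D5:**
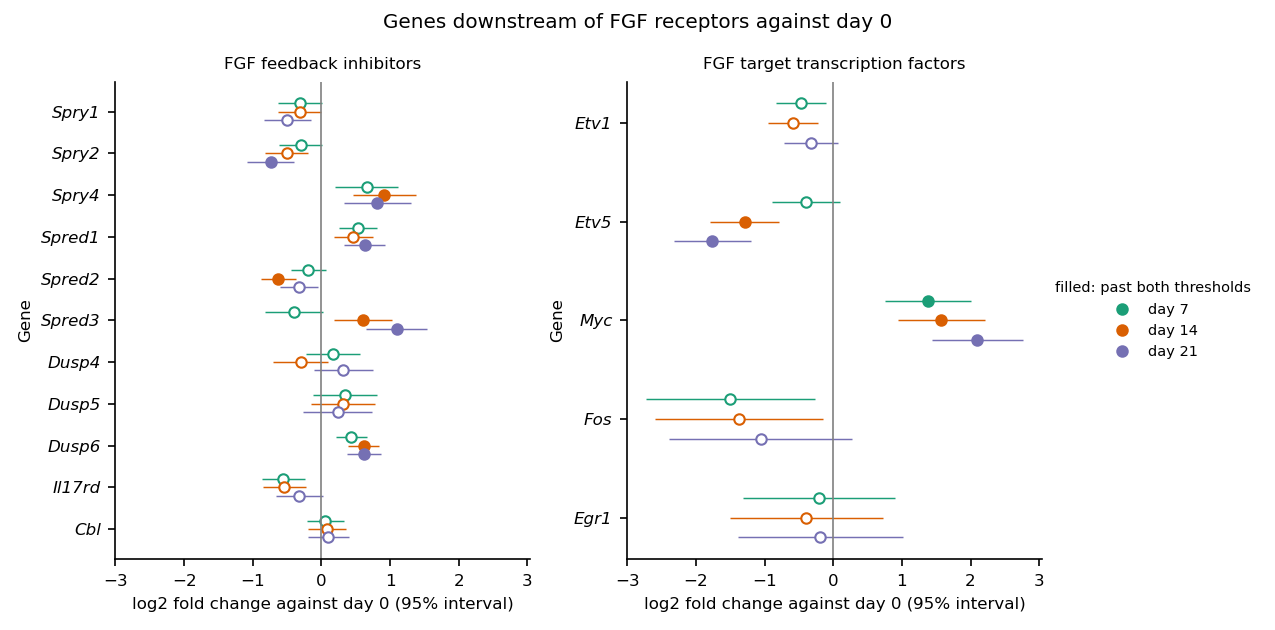
Log2 fold change against day 0 (horizontal axis) of the tested feedback inhibitors and target transcription factors at days 7, 14 and 21, with normal 95% intervals and filled points for values past both thresholds. Etv4 and Sox9, which passed the filter through later libraries alone, are not drawn. Myc lies to the right, from 1.38 at day 7 to 2.1005 at day 21, and Etv5 to the left at -1.76 at day 21, while most feedback inhibitors lie within 1 of 0.

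Heparan sulfate genes, whose products present FGFs to their receptors, formed the longest list. Of 23 genes, 6 were higher and 1 lower at day 7, 10 higher and 1 lower at day 14, and 8 higher and none lower at day 21, or 30.4%, 47.8% and 34.8% called beside 16.1%, 23.1% and 22.5% of all genes. The list medians were 0.36, 0.39 and 0.35, and with the mitochondrial share as a term 4 were called at day 7, all higher. With glmTreat the calls on the 3 days were 1, 3 and 6. Gpc1, a membrane-anchored glypican, rose by 1.31 (adjusted p = 0.00208), 1.44 (adjusted p = 0.000518) and 1.64 (adjusted p = 0.000353) on the log2 scale. Hspg2, which encodes the basement membrane proteoglycan perlecan, rose by 0.96 (adjusted p = 0.00225), 1.10 (adjusted p = 0.000440) and 1.19 (adjusted p = 0.000441), and Gpc4 by 0.79 (adjusted p = 0.0121), 1.36 (adjusted p = 0.000175) and 1.32 (adjusted p = 0.000412) on the same days. Ext1, a polymerase of the heparan sulfate chain, was higher on each day (0.89, 0.72 and 1.05, with adjusted p = 0.00250, 0.00569 and 0.000720). Sulf1, which trims sulfate from the chains outside the cell, was called at day 14 (0.80, adjusted p = 0.00204) and day 21 (1.21, adjusted p = 0.000179) and was at 0.56 (adjusted p = 0.0256) at day 7, with the fold below 1.5. The gene lower at days 7 and 14 was Hs3st1, a sulfotransferase of the chain.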

How the data were processed

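Reads were cut by the authors with TrimGalore and mapped with HISAT2 2.1.0 to mm10 (GRCm38). Multi-mapped reads were dropped, and raw HTSeq 0.6.0 counts per Ensembl gene were deposited, not normalized. Which annotation release HTSeq used, and whether it counted by strand, is not given in the sources used here. The library kit does not mark strand, so reads of overlapping genes on opposite strands cannot be told apart, and counts per gene do not separate splice forms.

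Identifiers were matched to symbols in GENCODE M21 (33267 of 33340). Counts were fitted in R 4.3.3 with edgeR 4.0.16 (filterByExpr, TMM factors, glmQLFit and glmQLFTest) in 1 model of the 15 libraries with day as the group. SE is the size of the log2 fold change divided by the square root of its F value. Libraries of a group differed by more than sampling noise (chi-square per gene of 10.9 to 82.8 over 21 pairs). Groups, days and replicate numbers came from the sample titles. The 10 genes, the pathway lists and the marker lists were chosen with earlier results of these data known.

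For each pathway list and contrast with day 0, up to 3 called genes with the largest changes were named, and Etv5, Spred1, Spred3, Dusp6, Hs3st1 and the genes never called were added after their values were seen. The 3 genes most like each changed member were picked by Pearson's r of log2 CPM with a prior count of 2. One of those picked for Fgfr4 is not reported here. Across the 15 libraries, 28 alternative settings were run, including DESeq2 1.42.0 and limma voom (limma 3.58.1), other scaling factors and filters, glmTreat, which tests against the 1.5-fold threshold itself, a replicate block, the mitochondrial share as a covariate or as a boundary of 2.5% or 3.5%, and 15 fits that each left out 1 library.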

Additional observations from a re-analysis of the deposited data

Results flagged for a closer look

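In the groups of 4 libraries, 30 were examined for a library far from the other 3 by Dixon's test at the 95% level, and chance alone marks about 5% of such groups. The first was Fgf2 in day 7 replicate 2, at 96.3 CPM where the other replicates held 55.1 to 59.8 CPM. The others were both in day 14 replicate 1, which held Fgf7 at 25.05 CPM against 13.8 to 14.99 CPM, and Fgfr1 at 224 CPM against 93.0 to 113 CPM. That library was also the day 14 library with a mitochondrial share under 2.5% and with the highest activated fibroblast markers. The part of either in its values was not tested.

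Fgfr2 differed between days after bleomycin by a test of the difference itself, with edgeR log2 fold changes of -0.77 from day 7 to day 14 and -1.22 from day 7 to day 21.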

How the results depend on the processing

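The counts of called FGF genes against day 0 (3, 7 and 8) stayed within 1.5 times under DESeq2, limma voom, other scaling factors, both filters, fits of the compared groups alone and every fit without 1 library. With glmTreat they were 0, 2 and 3, and between days 7 and 14 it called 0. Among the libraries under 2.5% mitochondrial share, 6 were called at day 7 and 3 between days 7 and 14, and among those over 3.5%, 3 between days 14 and 21; the lone day 14 or day 21 library there is assumed to vary like the other groups. With that share as a covariate, 0 were called between days 7 and 14, and at day 7 the calls were Fgf7 and Fgf10 in place of Fgf2, Fgfr2 and Fgfr3. Between days 7 and 21, DESeq2 and the fit with no filter called 2. Leaving out 1 library gave 0 to 2 calls between days 7 and 14, 1 to 3 between days 7 and 21 and 0 to 1 between days 14 and 21. Without day 14 replicate 1, 2 were called between days 7 and 14 and 1 between days 14 and 21, and without day 7 replicate 2, 3 were called between days 7 and 21. The cause of these differences was not tested.

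Changes of direction touched values that did not pass. Fgf9 was at -0.076 at day 7 with the covariate, at -0.15 and -0.057 at days 7 and 14 under 2.5%, at -1.61 at day 21 over 3.5%, and at -0.35 to 1.0004 at day 21 without 1 library. Fgf18 at day 7 was at -0.021 with DESeq2, -0.021 with RLE factors, -0.0072 with no filter, -0.026 with a mean of at least 1 CPM, -0.018 with the compared groups alone, -0.062 with the covariate and -0.15 under 2.5%, and at -0.18 to 0.17 without 1 library. Fgf18 was at -0.35 at day 14 under 2.5%, at -0.060 to 0.33 at day 14 and -0.34 to 0.21 at day 21 without 1 library. Fgfr1 at day 14 was at -0.030 to 0.51 without 1 library.

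Same-numbered libraries of different days correlated at a mean of -0.15 to 0.21, and differently numbered ones at a mean of -0.066 to 0.052. Single same-numbered pairs ran from -0.24 to 0.40. The widest gap was between days 14 and 21, at 0.21 for same-numbered and -0.066 for other pairs. These few pairs cannot tell whether libraries of a number share more than the number. With the replicate block, 3, 7 and 8 genes were called against day 0 and 1, 1 and 0 between later days, as without it, and Fgf18 at day 7 was at -0.0096. The 22.8% biological coefficient of variation and the 2 to 36 counts of Fgf9 limit what can be seen.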
